A study of Rattus norvegicus with 15 samples.

Results

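Peroxiredoxins, thioredoxin, its reductases and sulfiredoxin were followed in epididymal fat, the visceral depot beside the testis, of diet-induced obese and lean rats. The list held 10 genes, Prdx1 to Prdx6, Txn1, Txnrd1, Txnrd2 and Srxn1, chosen by family membership with the obese-lean differences of these arrays already known. Those differences are therefore given as a description of the genes, and nothing is supported with them. A probe set, the short probes that together read 1 transcript, counted as a member when the platform annotation named exactly 1 gene for it and that gene was on the list. This gave 12 of 31042 probe sets, for 9 of the 10 listed genes out of 14217 with a probe set of their own. The probe set for Prdx1 also names Prdx1l1, so Prdx1 has no value here.

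The obese group held 7 male Long-Evans rats fed a diet high in fat and sucrose from weaning, and the lean group held 8 male Long-Evans rats fed regular chow from weaning. All rats were 26 weeks old and fed when killed, and each gave 1 Affymetrix RAE230_2 array. Diet and obesity cannot be told apart in this design, and in whole fat a change in the cells present cannot be told apart from a change in RNA per cell. Values are MAS5 signals, the brightness that the MAS5 program assigns to a probe set on a linear scale, and signals of different probe sets cannot be ranked against each other.

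Obese rat 1 and lean rat 7 have nearly identical arrays despite their different labels. Over the 18625 probe sets above a filter on low signals, their log2 values had a Pearson correlation of 0.9857 across probe sets and differed with an SD of 0.221, while the next closest pair of arrays differed with an SD of 0.369. For the 9 genes, the log2 signal of obese rat 1 minus that of lean rat 7 ran from -0.08 for Prdx4 to 0.16 for Prdx6. Values are given for 13 arrays, 6 obese and 7 lean rats without this pair, and for all 15. The number of arrays limits the precision, and p-values measure the spread between these rats alone. Adipocyte markers were bright in both groups: the 11 of 12 with a probe set of their own summed to signals of 394700.0 to 796274 in the 6 obese rats and 433402 to 624106 in the 7 lean rats. The 2 neutrophil markers with a probe set, S100a8 and S100a9, and the single one of epididymal epithelium, Adam7, were below the filter.

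Peroxiredoxins are enzymes that reduce hydrogen peroxide and lipid peroxides through a reactive cysteine. In most of them the oxidised cysteine forms a disulfide that thioredoxin reduces, and thioredoxin is in turn reduced by thioredoxin reductase, a selenoprotein that draws on NADPH. Sulfiredoxin repairs typical peroxiredoxins whose cysteine has been oxidised too far. Fat cells make peroxides in mitochondria, peroxisomes and the endoplasmic reticulum and through NADPH oxidases, and several genes of the system are targets of Nrf2, the transcription factor of the oxidant response.

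Prdx5 and Prdx6 had higher signals in obese fat, by 1.43-fold and 1.42-fold on the log2(signal + 79.9) scale with 13 arrays, and Srxn1 and Prdx2 lay next to them. The other peroxiredoxins, thioredoxin and both reductases differed by less. Of the 11 member probe sets above the filter, 2 passed a limma adjusted p of 0.05 with 13 arrays, where 1.01% of all 18625 tested probe sets passed in either direction and 0.725% passed as higher in obese rats. With 15 arrays 0 members passed, and the share of all probe sets that passed was 0%. At an unadjusted limma p of 0.05, 4 of the 11 members passed with 13 arrays, against 17.8% of all probe sets, and the same number passed with 15 arrays, against 15.6%. These 4 were Prdx2, Prdx5, Prdx6 and the brightest Srxn1 probe set in both. Since this contrast was known when the genes were chosen, nothing is read from these counts.

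**Figure D1:**
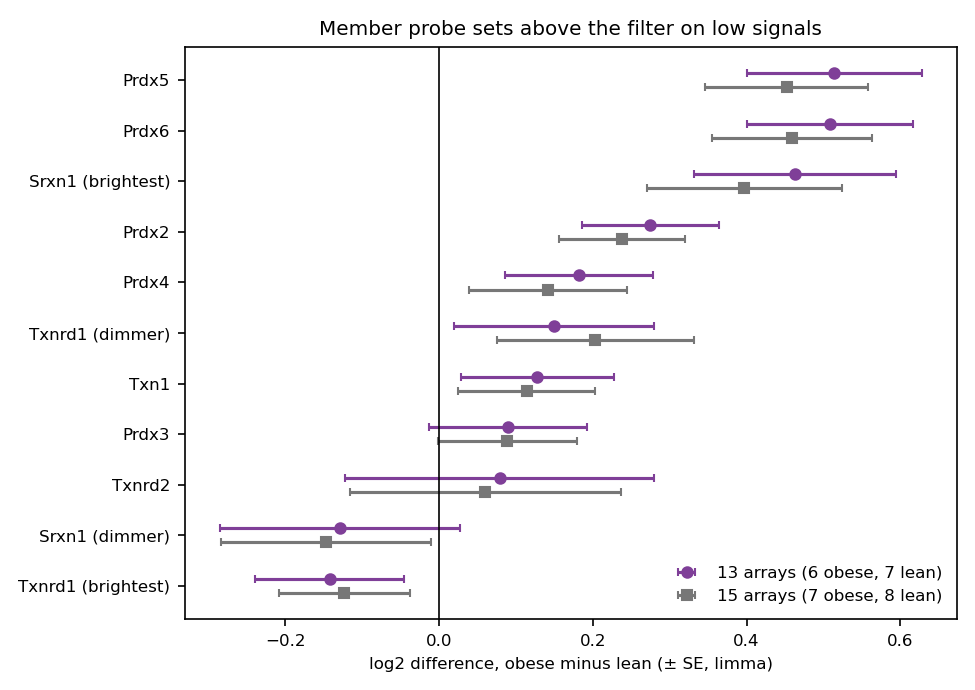
Differences of the 11 member probe sets above the filter. The horizontal axis is the log2 difference, obese minus lean, with its limma SE; circles are 13 arrays and squares are 15 arrays. Prdx5, Prdx6 and the brightest Srxn1 probe set lie farthest to the right, and the dimmer Srxn1 and the brightest Txnrd1 probe sets lie below 0.

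Prdx6 (Entrez gene 94167, probe set 1367969_at), the peroxiredoxin that works with glutathione instead of thioredoxin and also has phospholipase activity, was the single member whose groups did not overlap. Its signal in the 6 obese rats had a lowest value of 6693, a median of 7172 and a highest value of 9339.9, against 4229.5, 5205 and 5974 in the 7 lean rats. All obese rats thus lay above all lean rats with 13 arrays, which 0.918% of all tested probe sets also showed in that direction, and obese rat 3 stood highest. Obese rats averaged 7492 ± 976 (SD, n = 6) against 5235 ± 581 (SD, n = 7) for lean rats, and the log2 difference was 0.51 ± 0.11 (SE; limma adjusted p = 0.0421). Obese rat 1, at 5688, lay within the lean range. With 15 arrays the difference was 0.46 ± 0.10 (SE; limma adjusted p = 0.103), and 0 members had groups that did not overlap, as for 0.107% of all probe sets with obese rats higher.

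Prdx5 (113898, 1367677_at), found in mitochondria, peroxisomes and cytosol, had a lowest signal of 11990.3, a median of 15025 and a highest of 18969 in the 6 obese rats, against 9006, 10993 and 12059 in the 7 lean rats. Of the obese rats, 5 lay above every lean rat, while obese rat 2 lay just under lean rat 4. Obese rats averaged 15163 ± 2259 (SD, n = 6) against 10556 ± 1146 (SD, n = 7) for lean rats, and the log2 difference was 0.51 ± 0.11 (SE; limma adjusted p = 0.0465). With 15 arrays it was 0.45 ± 0.11 (SE; limma adjusted p = 0.103), and obese rat 1 at 12525 lay near lean rat 7 at 12043. With 13 arrays the differences of Prdx5 and Prdx6 were larger than those of 97.4% and 97.3% of all tested probe sets.

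Both calls were close to the threshold. With 13 arrays, leaving out any 1 more rat except obese rat 2 ended the call of Prdx5, at log2 differences of 0.45 to 0.55 and limma adjusted p from 0.0559 to 0.109. Leaving out any 1 more rat except obese rat 3 or lean rat 2 ended that of Prdx6, at 0.46 to 0.54 and adjusted p from 0.0521 to 0.0903. From all 15 arrays, leaving out obese rat 1 alone gave both calls (limma adjusted p = 0.039 for Prdx5 and 0.0233 for Prdx6). Gapdh control probe sets at the 3 prime end over those at the 5 prime end, a ratio that is larger in degraded RNA, gave a log2 value of 0.72 ± 0.27 (SD, n = 6) for obese against 1.04 ± 0.28 (SD, n = 7) for lean rats (exact two-sided permutation p = 0.0606). With this ratio as a covariate the log2 difference was 0.56 for Prdx5 and 0.57 for Prdx6 (limma adjusted p = 0.116 and 0.1).

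Macrophage markers also had higher signals in obese fat. All 18 listed markers had positive differences with 13 arrays, against 46.7% of 10514 genes, with a median of 0.82 on the log2 scale. The 7 that passed, against 0.725% of all tested probe sets as higher in obese rats, were Cd68, Itgax, Gpnmb, Lgals3, Tyrobp, Laptm5 and Spp1. Adgre1 and Cd14 had 0.244 and 0.135 (limma adjusted p = 0.614 and 0.635). The summed signal of the 18 markers ran from 153559 to 334101 in the 6 obese rats and from 89337 to 135955 in the 7 lean rats, without overlap. Bright probe sets weigh most in it: Gpnmb had medians of 39086 in obese and 9253.5 in lean rats, and Lgals3 45983 and 26150. With 15 arrays 0 of the 18 passed, the median was 0.69, and the sums were 119629 to 334101 in obese and 89337 to 135955 in lean rats. Among the 6 obese rats of the 13 arrays, obese rat 6 had the highest macrophage sum. By brightest probe sets it also had the highest Prdx2, Prdx4, Prdx5 and Srxn1 signals and the lowest Prdx6 signal. Obese rat 3, with the lowest macrophage sum of the 6, had the highest Prdx6 and Txnrd2 signals and the lowest Prdx3, Prdx4 and Srxn1 signals. Its Prdx2 and Prdx5 signals, 14279.4 and 15510.2, came next after those of obese rat 6. The part of macrophages in the differences was not tested.

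**Figure D2:**
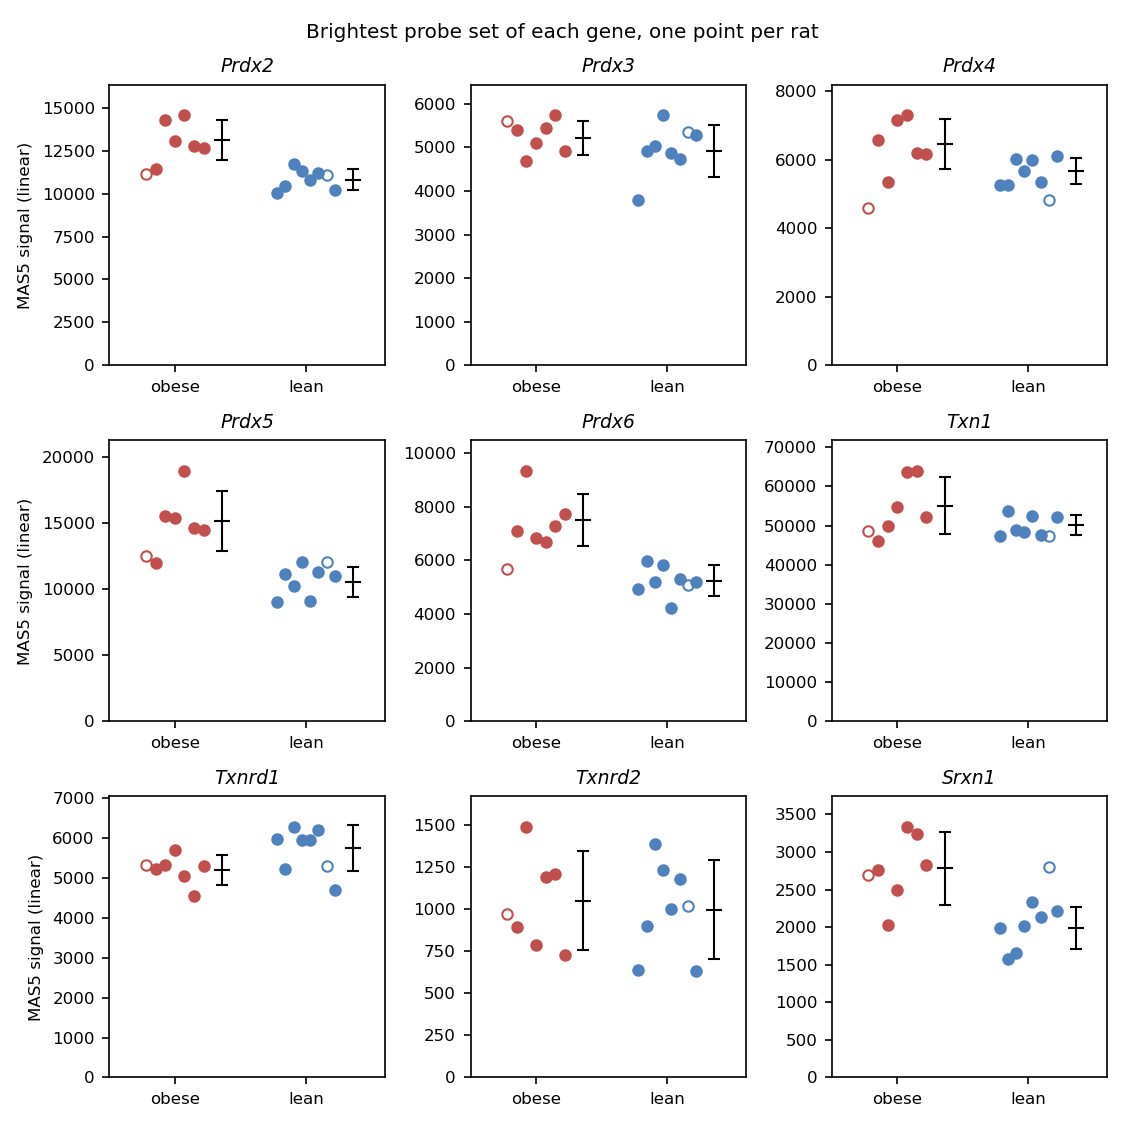
Signals of the brightest probe set of each of the 9 genes, 1 point per rat, on a linear axis that starts at 0. Obese rats are red and lean rats blue; open circles are obese rat 1 and lean rat 7, and the bar beside each group is the mean ± SD of the 6 obese or 7 lean rats without them. In the Prdx6 panel all filled red points lie above all blue points, while for Prdx3 and Txnrd2 the groups lie over each other.

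The typical peroxiredoxins measured here, Prdx2, Prdx3 and Prdx4, had smaller differences than Prdx5 and Prdx6. Prdx2 (29338, 1367578_at), a cytosolic enzyme abundant in red blood cells, had a lowest signal of 11413, a median of 12916 and a highest of 14592 in the 6 obese rats, against 10008, 10804 and 11716 in the 7 lean rats. Again 5 obese rats lay above every lean rat, and obese rat 2 lay within the lean range. The log2 difference was 0.28 ± 0.09 with 13 arrays and 0.24 ± 0.08 with 15 (SE; limma adjusted p = 0.132 and 0.19). The 4 tested red blood cell markers were all positive and 0 passed, and the 6 with a probe set summed to 58172 to 140475 in obese and 62946 to 87436 in lean rats, ranges that overlapped. Centring each array on its median, which moved the median log2 difference of all probe sets from -0.04 to 0.07, gave Prdx2 0.39 (limma adjusted p = 0.0477).

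Prdx4 (85274, 1387891_at), the peroxiredoxin of the endoplasmic reticulum, ran from 5349.5 through a median of 6378 to 7309 in the 6 obese rats, against 5253, 5672 and 6098 in the 7 lean rats. In 5 obese rats it lay above every lean rat, and obese rat 3 was within the lean range. Its log2 difference was 0.18 ± 0.10 (SE; limma adjusted p = 0.338). With obese rat 1, which at 4580 was below every lean rat, the difference was 0.14 ± 0.10 (SE, 15 arrays; limma adjusted p = 0.526).

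Prdx3 (64371, 1367591_at), the mitochondrial member, had the smallest difference among the peroxiredoxins. Its signal ran from 4681 through a median of 5240.2 to 5751 in the 6 obese rats, against 3803, 4925 and 5745 in the 7 lean rats. The groups overlapped almost wholly apart from lean rat 1, which was lowest, and the log2 difference was 0.09 ± 0.10 with 13 arrays and 0.09 ± 0.09 with 15 (SE; limma adjusted p = 0.688 and 0.677). Among 10 genes listed for mitochondrial content, 8 were positive, 0 passed and the median log2 difference was 0.08. Of these, Vdac1, the channel of the outer mitochondrial membrane, had 0.42 (limma adjusted p = 0.0624), the respiratory chain subunit Uqcrc1 0.17 and the chaperone Hspd1 0.22. Vdac1 passed in 6 alternatives with 13 arrays, those with the 60th percentile filter, median centring, trend and robust, the mean over probe sets (0.54), without obese rat 3 and without lean rat 8 (limma adjusted p from 0.0273 to 0.0455).

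Txn1 (116484, 1398839_at), the cytosolic thioredoxin that returns most peroxiredoxins to their reduced form, ran from 46063 through a median of 53514 to 64056 in the 6 obese rats, against 47399, 48772 and 53693 in the 7 lean rats. Obese rats 5, 6 and 7 lay above every lean rat and obese rat 2 lay below every lean rat. The spread was wider in obese than in lean rats, with a coefficient of variation of 13.3% against 5.2%, a difference that was not tested. The log2 difference was 0.13 ± 0.10 with 13 arrays and 0.11 ± 0.09 with 15 (SE; limma adjusted p = 0.529 and 0.557).

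The thioredoxin reductases had small differences of either sign. The brightest probe set of Txnrd1 (58819, 1398791_at), the cytosolic reductase, ran from 4557 through a median of 5276 to 5705 in the 6 obese rats, against 4713, 5950.0 and 6292 in the 7 lean rats. Its log2 difference was -0.14 ± 0.10 with 13 arrays and -0.12 ± 0.08 with 15 (SE; limma adjusted p = 0.464 and 0.502). The dimmer probe set (1386958_at) ran from 733 through 1013 to 1146 in obese rats, against 731, 821 and 1217 in lean rats, and differed in sign, at 0.15 ± 0.13 with 13 arrays and 0.20 ± 0.13 with 15 (SE; limma adjusted p = 0.581 and 0.458). The mean over both gave 0.004 with 13 arrays. Txnrd2 (50551, 1368309_at), the mitochondrial reductase, ran from 725 through 1041 to 1489 in obese rats, against 629, 1000.0 and 1385 in lean rats, with the widest spread of the brightest probe sets in both groups, a coefficient of variation of 28.1% in obese and 29.4% in lean rats. Its log2 difference was 0.08 ± 0.20 with 13 arrays and 0.06 ± 0.18 with 15 (SE; limma adjusted p = 0.869 and 0.897), and it changed sign when obese rat 3, lean rat 1 or lean rat 8 was left out, at -0.024, -0.010 and -0.013 with 13 arrays.

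Srxn1 (296271), which repairs over-oxidised peroxiredoxins, had 3 probe sets, and they differed. The brightest (1372510_at) ran from 2024 through a median of 2794 to 3337 in the 6 obese rats, against 1578, 2013 and 2330.3 in the 7 lean rats. In it 5 obese rats lay above every lean rat and obese rat 3 within the lean range, for a log2 difference of 0.46 ± 0.13 with 13 arrays and 0.40 ± 0.13 with 15 (SE; limma adjusted p = 0.0954 and 0.164). The second (1384331_at) ran from 538 through 719 to 763 in obese rats, against 501, 784 and 1123 in lean rats, a log2 difference of -0.13 ± 0.16 (SE, 13 arrays; limma adjusted p = 0.703). The third (1381067_at), the 1 member probe set below the filter, ran from 27 to 283 in obese and from 28 to 398 in lean rats and was not tested. Without obese rat 3 the brightest passed with the other 12 arrays, at 0.55 (limma adjusted p = 0.041). The mean over the probe sets above the filter gave 0.17 (limma adjusted p = 0.428).

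The log2 ratio of the brightest to the second Srxn1 probe set shows the split within each rat. It ran from 1.40 through a median of 2.03 to 2.06 in the 6 obese rats and from 0.77 through 1.30 to 1.83 in the 7 lean rats. The lowest obese value was that of obese rat 3, and the groups overlapped. For the brightest over the dimmer Txnrd1 probe set the ratio ran from 2.07 through 2.22 to 2.83 in obese and from 2.30 through 2.60 to 2.90 in lean rats. Which of these probe sets follows the main transcript of its gene was not tested.

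**Figure D3:**
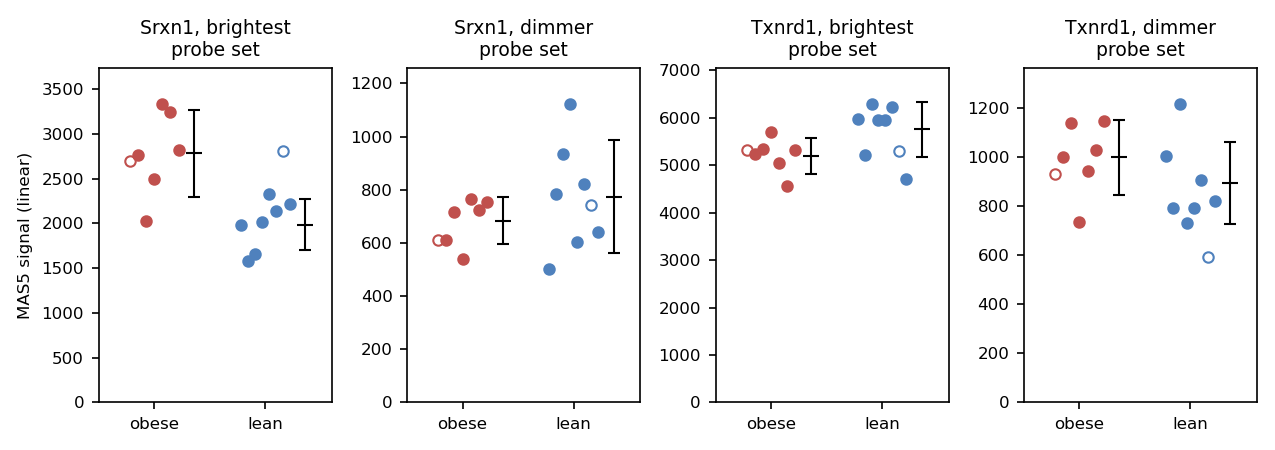
Signals of the brightest and the dimmer probe set above the filter for Srxn1 and for Txnrd1, 1 point per rat, on linear axes that start at 0. Obese rats are red and lean rats blue, open circles are obese rat 1 and lean rat 7, and bars are the mean ± SD of the other rats. For both genes the means of the 2 probe sets lie in opposite order between the groups.

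Over the 9 genes by their brightest probe sets, 8 had positive differences with 13 arrays, with a median of 0.18 on the log2 scale, where 46.7% of 10514 genes were positive and their median was -0.02. With 15 arrays 8 were positive with a median of 0.14, against 46.9% and -0.01 over all genes. Each rat's mean log2 value over the 9 genes, set against the mean of the 7 lean rats, ran from 0.13 in obese rat 2 to 0.37 in obese rat 6 among the 6 obese rats and from -0.16 in lean rat 1 to 0.12 in lean rat 4 among the lean rats. Obese rat 6 was the highest obese rat in 4 of the 9 genes, and obese rats 2 and 3 were each the lowest in 3. Lean rat 1 was the lowest lean rat in 5. Obese rat 1, with a mean of 0.07, and lean rat 7, with 0.05, lay side by side.

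Whether functionally linked members varied together within a group, a question that the difference between groups does not enter, was examined in 4 pairs: Txn1 with Txnrd1, Prdx3 with Txnrd2, Prdx3 with Prdx5, and Prdx5 with Prdx6. The 2 planned pairs with Prdx1 could not be computed. Of the 8 relations, 0 passed Benjamini-Hochberg adjustment. The strongest was that of Prdx5 with Prdx6 in lean rats, with Pearson r = 0.83 (exact permutation p = 0.0222, adjusted p = 0.178, n = 7) and Spearman rho = 0.82 (exact permutation p = 0.0341, adjusted p = 0.273, n = 7). Without the 2 rats farthest from the Prdx5 median it was r = 0.61. In obese rats the same pair had r = -0.10 (exact permutation p = 0.806, adjusted p = 0.975, n = 6) and rho = -0.26 (exact permutation p = 0.658, adjusted p = 0.877, n = 6), and the difference between the groups was not tested. Prdx3 with Prdx5 in lean rats had r = 0.73 (exact permutation p = 0.054, adjusted p = 0.216, n = 7). Its Spearman rho was 0.54 (exact permutation p = 0.236, adjusted p = 0.629, n = 7). Without the 2 rats farthest from the Prdx3 median r was 0.06. That leaves 5 rats with a narrower range of Prdx3, so it cannot show what the relation rests on. Txn1 with Txnrd1 had r = -0.60 in obese and -0.71 in lean rats (exact permutation p = 0.253 and 0.108, adjusted p = 0.506 and 0.288). Without the 2 rats farthest from the Txn1 median it was 0.83 in obese and -0.91 in lean rats, and median centring gave 0.16 in obese rats, so the sign in obese rats did not hold.

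The thioredoxin and glutaredoxin partners of the members were measured in 18 of 20 listed genes, with 14 positive, 0 passing in either direction and a median log2 difference of 0.11 with 13 arrays. Txnip, which binds and inhibits thioredoxin, had a lowest signal of 43164, a median of 53189.6 and a highest of 66404 in the 6 obese rats, against 33759, 41073 and 50051 in the 7 lean rats. Its groups overlapped, and its log2 difference was 0.37 ± 0.12 (SE; limma adjusted p = 0.121). Txn2, the mitochondrial thioredoxin, had 0.03 ± 0.09, Txndc17, a thioredoxin-like protein, 0.28 ± 0.12 and Glrx, the cytosolic glutaredoxin, 0.56 ± 0.23 (SE; limma adjusted p = 0.894, 0.252 and 0.216). With 15 arrays Glrx had 0.25 ± 0.28 (SE; limma adjusted p = 0.713). Gsr, glutathione reductase, and Msra were below the filter. Among genes of disulfide formation in the endoplasmic reticulum, 5 of 8 were positive and 0 passed, with 0.23 for the isomerase P4hb, -0.14 for Pdia3 and -0.14 for the oxidase Ero1a (limma adjusted p = 0.173, 0.448 and 0.562).

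Nrf2, its regulators and its targets were measured in 20 of 25 listed genes. With 13 arrays 14 were positive, against 46.7% of 10514 genes, and the median was 0.22. In this list 1 passed as higher, against 0.725% of all tested probe sets, and 0 as lower. The targets were not alike: Nqo1 and Gclm had 0.061 and 0.003 (limma adjusted p = 0.785 and 0.994). Gclc, Gsta4 and Slc7a11 had -0.175, -0.232 and -0.456 (limma adjusted p = 0.341, 0.349 and 0.13). Nfe2l2, which encodes Nrf2, had a log2 difference of 0.04 ± 0.09 and Keap1, which marks Nrf2 for degradation, -0.18 ± 0.13 (SE; limma adjusted p = 0.872 and 0.484). Tkt, a pentose phosphate enzyme, was the gene that passed, at 0.50 ± 0.10 (SE; limma adjusted p = 0.0333). Its signal ran from 12469.8 to 17113 in the 6 obese rats, against 8884 to 11368 in the 7 lean rats. Its groups did not overlap, as for 0.918% of all tested probe sets with obese rats higher. Leaving out obese rat 5, 6 or 7 or lean rat 3, 4, 5, 6 or 8 ended its call, at 0.46 to 0.51 (limma adjusted p from 0.0507 to 0.0743). Its call was also lost with no filter, with quantile normalization (0.40) and with the Gapdh ratio (0.58), at limma adjusted p = 0.0788, 0.0819 and 0.068, and with 15 arrays it had 0.43 (limma adjusted p = 0.103). Taldo1 of the same pathway had 0.55 ± 0.13 and heme oxygenase Hmox1 0.86 ± 0.23 (SE; limma adjusted p = 0.0546 and 0.0835). With 13 arrays Taldo1 passed in 6 alternatives, at limma adjusted p from 0.0229 to 0.0401, and Hmox1 in 2, the 60th percentile filter and median centring, at 0.0438 and 0.0404. Hmox1 ran from 2925 through 4117 to 9298 in obese rats, against 1761, 2428.5 and 3233 in lean rats.

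Genes listed for selenoprotein synthesis were measured in full, with 5 of 10 positive with 13 arrays, against 46.7% of 10514 genes. Of these, 0 passed as higher and 1 as lower, where 54 of all 18625 tested probe sets passed as lower. Sepsecs, the synthase of selenocysteine on its transfer RNA, fell by 0.52 ± 0.10 on the log2 scale with 13 arrays (SE; limma adjusted p = 0.0322). Its signal ran from 1389 through 1601 to 1780.5 in the 6 obese rats, against 1958, 2229.6 and 2771 in the 7 lean rats. Its groups did not overlap, and the share of all probe sets that were lower without overlap was not counted. Leaving out obese rat 2, 6, 7 or 8 or lean rat 3, 4, 5 or 6 ended its call, at -0.55 to -0.48 (limma adjusted p from 0.0502 to 0.0796). Its call was also lost with no filter, with median centring (-0.40) and with the Gapdh ratio (-0.49), at limma adjusted p = 0.0785, 0.0776 and 0.13. With 15 arrays its difference was -0.46 ± 0.10 (SE; limma adjusted p = 0.0948). Secisbp2l had 0.35 ± 0.13 and the selenocysteine lyase Scly -0.23 ± 0.13 (SE; limma adjusted p = 0.166 and 0.377). With 15 arrays 0 genes of these lists passed. Every list was written with earlier results of these arrays known.

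**Figure D4:**
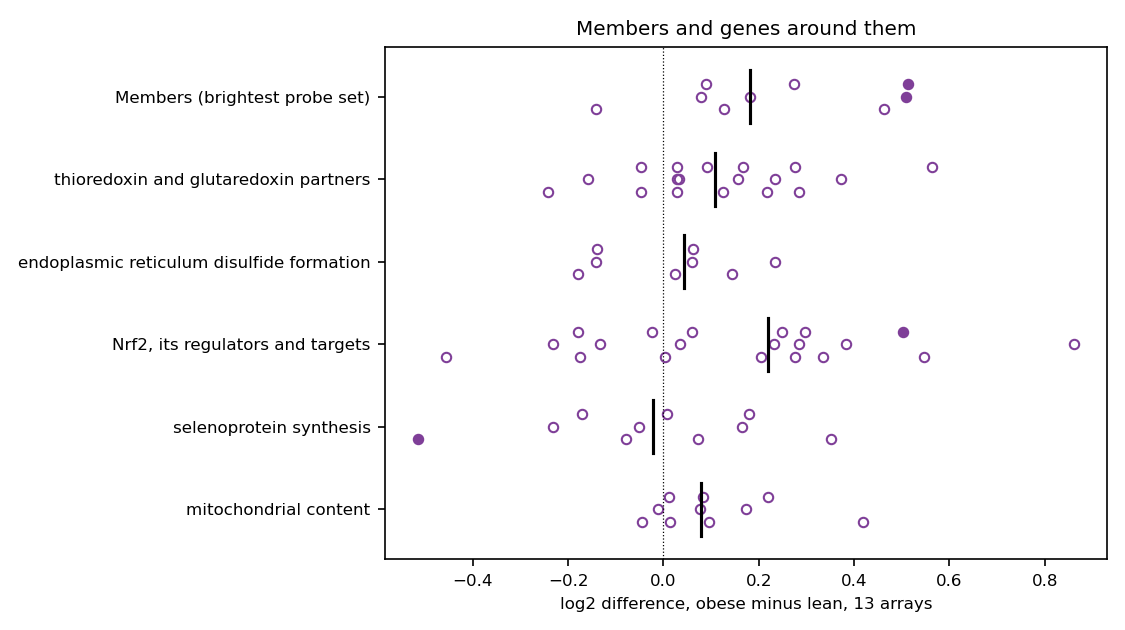
Log2 differences, obese minus lean with 13 arrays, of the 9 genes and of the genes of each list, by the brightest probe set of each gene. Filled points passed a limma adjusted p of 0.05, open points did not, and the black bar is the median. Medians ran from -0.02 for selenoprotein synthesis to 0.22 for the Nrf2 list, and Hmox1, at 0.86, lies farthest to the right.

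Promoter windows of the members, 250 bases before to 50 after the gene start, from RefSeq on build GRCr8, were searched for the core of the antioxidant response element, to which Nrf2 binds. Both strands were searched for TGACNNNGC and TGAGNNNGC, and for the AP-1 site TGAGTCA, which is part of a core match where GC follows it directly. RefSeq held 10 windows for 9 of the 10 genes, Txnrd1 with 2, and Prdx6 was not among them. A core match stood in 5 of the 10 windows, those of Prdx1, Prdx4, Prdx5, Srxn1 and the downstream one of Txnrd1, against 27.1% of all 33469 windows. An AP-1 match stood in 2, those of Prdx1 and Srxn1, against 4.6% of all. A match is a description of the letters and not of binding. Shown are 3 genes with a core match, whose brightest probe sets were higher in obese rats for Srxn1 and Prdx5 and lower for Txnrd1. The dimmer tested probe sets of Srxn1 and Txnrd1 had the opposite sign, so the sign of neither gene is settled. Each window is given on its own coding strand with core and AP-1 matches in capitals: Srxn1, chr3:161064562-161064861 on the plus strand, Prdx5, chr1:213531978-213532277 on the minus strand, and Txnrd1, chr7:22755855-22756154 on the minus strand.
Srxn1: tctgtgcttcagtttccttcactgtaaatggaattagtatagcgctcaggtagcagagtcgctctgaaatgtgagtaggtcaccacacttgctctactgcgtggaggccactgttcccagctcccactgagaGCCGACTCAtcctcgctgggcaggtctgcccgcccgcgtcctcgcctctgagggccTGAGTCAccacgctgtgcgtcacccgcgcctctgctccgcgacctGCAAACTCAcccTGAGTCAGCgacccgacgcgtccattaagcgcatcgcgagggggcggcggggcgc
Prdx5: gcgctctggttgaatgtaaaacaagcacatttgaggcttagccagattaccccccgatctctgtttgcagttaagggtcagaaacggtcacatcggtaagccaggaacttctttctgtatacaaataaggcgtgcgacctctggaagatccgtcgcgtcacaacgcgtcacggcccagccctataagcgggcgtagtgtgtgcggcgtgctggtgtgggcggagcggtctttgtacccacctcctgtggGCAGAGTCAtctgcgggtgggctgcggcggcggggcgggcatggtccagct
Txnrd1: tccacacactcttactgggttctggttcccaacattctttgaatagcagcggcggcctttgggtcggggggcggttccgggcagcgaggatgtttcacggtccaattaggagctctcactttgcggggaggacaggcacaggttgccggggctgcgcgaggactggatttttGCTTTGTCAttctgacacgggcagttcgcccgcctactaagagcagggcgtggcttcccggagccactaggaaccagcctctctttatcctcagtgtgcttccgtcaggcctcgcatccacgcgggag
Counted from 1 at the 5′ end of the window, the Srxn1 core matches began at bases 133, 234 and 246, and its AP-1 matches at 189 and 246, so that the last of each overlap; in Prdx1 an AP-1 match also lies within the core match. The Prdx5 match began at base 250 and the Txnrd1 match at base 173. The GC box GGGCGG was found in 9 of the 10 windows, against 33.1% of all. These motifs were chosen after the windows were seen and GC content was not matched, so nothing is read from the shares.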

How the data were processed

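Total RNA of epididymal fat was measured on 1 array per rat. The deposited values are intensity values that the authors made with MAS5, according to the submitters' processing notes; its version is not given in the sources used here. Trimmed by 2%, the array means lay between 1500.34 and 1500.42, so the values were used as deposited. The labels and the series text disagree on RNA input and extraction reagent. The rats came from a private colony and were housed individually, and no source names a batch.

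A pseudocount of 79.9, the 10th percentile over every signal, was added before taking log2, which understates changes of dim genes. Those with a mean above the 40th percentile, 18625 of 31042 probe sets beside 57 controls, were tested with limma 3.58.1 in R 4.3.3 and Benjamini-Hochberg adjustment over all of them. Of the probe sets, 20826 named 1 gene, 436 several and 9780 none; 20758 matched a current Entrez ID. Each gene was read by its brightest probe set. The fit was also run on simulated data, with a result that is not given here. Correlations used exact permutations in scipy 1.17.1; figures used matplotlib 3.10.9. Close relatives may cross-hybridise, which was not tested.

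Members, lists and tests were chosen with earlier results of these data known. Named were all members, from each pathway list up to 3 genes with the smallest p with 13 arrays and any other that passed, and Nfe2l2, Keap1, Txn2 and Txnip. The macrophage markers and Nqo1, Gclm, Gclc, Gsta4 and Slc7a11 were named outside this rule, with their values known. Markers of mesothelium, endothelium and mast cells had medians of -0.31, 0.03 and -0.19 on the log2 scale with 13 arrays, and 0 passed. Motifs were chosen after the windows were seen. Alternatives were other pseudocounts, filters and scalings, the rat number as a block, the Gapdh ratio, trend and robust, the mean over probe sets and each rat left out.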

Additional observations from a re-analysis of the deposited data

How the results depend on the processing

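With 15 arrays the number of all probe sets that passed was 0, but 49 with the filter at the 60th percentile, 3 with no filter, 8 with trend and robust, 189 without the near-identical arrays and 0 to 245 with 1 rat left out. With 13 arrays it was 189, but 334 with the 60th percentile filter, 46 with no filter, 123 with a pseudocount of 1, 124 with quantile normalization, 389 with median centring (357 higher and 32 lower in obese, against 135 and 54 as reported), 14 with the Gapdh ratio, 309 with trend and robust and 51 to 262 with 1 more rat left out. Members that passed with 13 arrays were 1 with a pseudocount of 1, 0 with no filter, with quantile normalization, with the Gapdh ratio and with the replicate block, and 0 to 2 with 1 more rat left out; with 15 arrays they were 0 to 2 with 1 rat left out. Whether the numbers in the titles pair the rats was not settled. Deviations of same-numbered rats correlated from -0.117 to 0.229 in 5 pairs of the 13 arrays. Of these 10 rats, 4 correlated best with their own number, and with 15 arrays 3 of 14 did. No chance level was set for these counts, so they do not decide the question. The replicate block, which keeps the rats whose number occurs in both groups, gave 3 probe sets with 13 arrays and 0 with 15. Prdx5 and Prdx6 then had log2 differences of 0.52 and 0.53 (limma adjusted p = 0.207 and 0.195), Tkt 0.52 and Sepsecs -0.50 (limma adjusted p = 0.198 and 0.185).

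Prdx2, Prdx3, Prdx4, Prdx5, Prdx6, Txn1 and Srxn1 kept a positive sign in every alternative run, by their brightest probe sets. Prdx5 passed in 6 of 23 alternatives with 13 arrays, at 0.41 to 0.63 over all of them, and Prdx6 in 8 of 23, at 0.44 to 0.62. Signs turned for Txnrd1, Txnrd2, Txn2, Nfe2l2, Glrx and Keap1, of which 0 had passed. The mean over probe sets gave Txnrd1 0.04 with 15 arrays and 0.004 with 13, since its probe sets differ in sign. Txnrd2 had -0.006 with the replicate block and ran from -0.028 to 0.132 with 1 rat left out of 15 and from -0.024 to 0.168 out of 13. Txn2 had -0.046 and -0.048 with quantile normalization and ran from -0.013 to 0.039 and from -0.013 to 0.053 with 1 rat left out. Nfe2l2 had -0.027 and -0.039 with quantile normalization, and the Gapdh ratio gave Glrx -0.072 with 15 arrays and Keap1 0.032 with 13. Among the pairs in obese rats, r of Txn1 with Txnrd1 was 0.16 with median centring and 0.83 without the 2 farthest rats, that of Prdx3 with Prdx5 was 0.44 and 0.14, and that of Prdx5 with Prdx6 was 0.15 with quantile normalization and 0.31 without those 2. Prdx3 with Txnrd2 in lean rats was -0.62 without the 2 farthest rats. The cause of these turns was not tested. Dim probe sets such as the third of Srxn1 limit what can be measured there.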
